A study of Homo sapiens with 10 samples.

Results

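The 4 polo-like kinase genes PLK1, PLK2, PLK3 and PLK4 were followed by symbol in RNA sequencing profiles of U2OS, a human osteosarcoma cell line with wild-type p53. They are 4 of the 26040 genes listed, and all 4 passed the filter on low values that left 14955 genes to be tested. ARVCF, a catenin that binds cadherins, was targeted by 3 different shRNAs, each in a line of its own, and a further line carried a negative control shRNA. There were 3 shARVCF libraries given 10 µM nutlin-3a for 24 h (1 for each shRNA), 3 untreated shARVCF libraries (1 for each shRNA), 3 control shRNA libraries given the same drug, and 1 untreated control shRNA library. Nutlin-3a keeps the ubiquitin ligase MDM2 from binding p53 and so stabilises p53. All groups, controls included, carried a lentiviral shRNA and grew under puromycin at 1 µg/ml, and the labels describe each line as a single clone. All 4 control libraries belong to 1 such line, so no spread between control lines was measured.

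Polo-like kinases are serine/threonine kinases that find many of their substrates through a carboxy-terminal polo-box domain. PLK1 drives mitotic entry, spindle assembly, chromosome segregation and cytokinesis, and PLK4 starts centriole duplication. Both mRNAs rise late in the cell cycle in proliferating cells. PLK2 and PLK3 are inducible genes of the immediate early and stress responses, and both have been described as targets of p53. PLK5, a further family member that lacks most of the kinase domain in humans, was listed between 0 and 4.53 scaled fragments in the 10 libraries and was not tested.

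In the GENCODE annotation of GRCh38, PLK1 lies at chr16:23677656-23690367 on the plus strand with 10 exons, and PLK4 at chr4:127880861-127899195 on the plus strand with 16 exons. PLK2 lies at chr5:58453982-58460260 on the minus strand with 14 exons, and PLK3 at chr1:44800225-44805990 on the plus strand with 15 exons. Their spliced lengths were 2227, 3841, 2960 and 2492 bases for PLK1, PLK4, PLK2 and PLK3, with GC contents of 57.3%, 38.4%, 47.2% and 61.2%, in the same gene order. PLK4 therefore had the longest transcript and the lowest GC content of the 4. The stranded library kit was named, but no source used here says whether strand was used in counting. PLK1 overlaps ERN2 on the other strand by 42 bases, and PLK3 overlaps TCTEX1D4 by 78 bases. The antisense gene AC008870.3 lies wholly inside PLK1 on the other strand (641 bases), and the small nuclear RNA gene RNU6-583P lies inside PLK4 on the same strand (92 bases), and neither was analysed here. Without strand in counting, reads from overlapping genes cannot be told apart. ERN2 was at or near 0 in every library, and TCTEX1D4 stood at 9.06 to 92.2 scaled fragments, below PLK3 in each group.

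The start-proximal sequences are shown because PLK1 and PLK4 moved in one direction under nutlin-3a and PLK2 and PLK3 in the other. RefSeq promoter windows (GRCh38.p14, 250 bases before and 50 after a start) matched all 4 genes, with 1 window each for PLK1, PLK2 and PLK3 and 3 for PLK4. These starts need not coincide with the outer ends of the GENCODE genes. The runs are the 250 bases upstream of the start, 5′ to 3′ on the strand of the gene, at chr16:23678639-23678888 for PLK1, chr4:127880643-127880892 for the first PLK4 window, chr5:58460087-58460336 for PLK2 and chr1:44800127-44800376 for PLK3. The fifth run is a 30-base stretch after the PLK4 start, at chr4:127880912-127880941. Capitals mark matches, on either strand, to the motifs described after the sequences.
PLK1: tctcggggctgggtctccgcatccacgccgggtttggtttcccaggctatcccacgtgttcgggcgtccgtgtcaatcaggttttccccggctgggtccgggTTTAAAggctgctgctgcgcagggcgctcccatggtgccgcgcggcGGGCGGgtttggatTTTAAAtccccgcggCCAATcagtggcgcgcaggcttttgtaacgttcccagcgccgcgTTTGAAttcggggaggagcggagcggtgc
PLK4: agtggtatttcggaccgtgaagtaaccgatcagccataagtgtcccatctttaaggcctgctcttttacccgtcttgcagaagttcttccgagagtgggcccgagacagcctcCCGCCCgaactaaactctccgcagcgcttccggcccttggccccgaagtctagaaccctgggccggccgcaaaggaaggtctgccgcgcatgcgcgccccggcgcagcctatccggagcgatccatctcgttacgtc
PLK4 after the start: cggcaagcggcgggagattTTCAAAatggg
PLK2: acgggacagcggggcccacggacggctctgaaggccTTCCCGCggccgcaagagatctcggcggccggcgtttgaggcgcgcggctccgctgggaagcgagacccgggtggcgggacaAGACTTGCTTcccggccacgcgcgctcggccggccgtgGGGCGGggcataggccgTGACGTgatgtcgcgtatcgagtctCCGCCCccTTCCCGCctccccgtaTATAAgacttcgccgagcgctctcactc
PLK3: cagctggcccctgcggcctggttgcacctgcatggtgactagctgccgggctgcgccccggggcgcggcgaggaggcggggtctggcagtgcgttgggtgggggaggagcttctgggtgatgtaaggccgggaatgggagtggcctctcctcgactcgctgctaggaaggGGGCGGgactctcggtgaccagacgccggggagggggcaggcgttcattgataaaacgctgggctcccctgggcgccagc

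Positions are counted from the start site. The cell cycle homology region (CHR), a short element of many late cell cycle promoters, was searched as TTTGAA and as TTTAAA on both strands. The PLK1 run held TTTGAA at -29 and TTTAAA at -148 and -88, with a CCAAT box (CCAAT) at -73. PLK4 held TTTGAA on the minus strand at 39 in its first window. Neither string occurred in the windows of PLK2 or PLK3. Of all 35116 promoter windows, 15.2% held TTTGAA, 12.2% TTTAAA and 34.6% CCAAT, so these letters are common.

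The PLK2 run held a p53 half-site, the name for a single copy of the decamer that p53 binds in pairs, at -132, a match found in 6.63% of all windows. It also held the E2F-type letters TTCCCGC at -214 and -44 (6.55% of windows), the cyclic AMP response core TGACGT at -77 (7.98%) and TATAA at -28 (20.4%). PLK3 held GC boxes (GGGCGG, 45% of windows) at -80 and 43 as its only matches among these motifs. GC boxes were also present in the PLK1 run at -102, in the PLK2 run at -94 and, on the minus strand, -52, and in the PLK4 run on the minus strand at -137. TGACGT also crossed the first PLK4 start on the minus strand from -5. The second PLK4 window held the E2F-type letters TTGGCGC on the minus strand at -188 (3.04% of windows) and the third held CCAAT on the minus strand at -86. No window of the 4 genes held a CArG box, the site of serum response factor (1.29% of windows). A match is a string of letters and not a shown site.

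Values are fragments per gene, scaled across libraries by the authors. Each library summed to between 17821751 and 19903778 scaled fragments. The library numbers in the labels set 2 of the 3 control nutlin-3a libraries (2 and 3) apart from the other 8, and these 2 were treated as a second library series, although no label says so. ARVCF stood at 1235 ± 48.3 in shARVCF nutlin-3a libraries and 2625 ± 280 in control nutlin-3a libraries, and at 324.3 ± 28.3 in untreated shARVCF libraries and 617.7 in the untreated control library (SD, n = 3; n = 1 for the untreated control). CDKN1A and MDM2, targets of p53, were raised by the drug in both kinds of line, CDKN1A 8.64-fold in shARVCF and 7.97-fold in control lines, and MDM2 9.49-fold and 4.66-fold, with adjusted p-values (limma) of 1.45e-06 or less. Of the osteoblast lineage markers, COL1A1, SPARC, RUNX2, ALPL and SPP1 were present in every library, while SP7, IBSP and BGLAP were at or near 0 and COL1A2 stood at 15.5 or less. Of the blood cell markers reported here, HBB and CD3E were at or near 0 and PTPRC at 12.7 or less, while CD68 stood at 30.6 to 380. The epithelial keratins KRT8 and KRT18 were present, EPCAM stood at 43.8 to 142.5, and CDH1 and KRT19 stood at 34.7 or less.

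**Figure D1:**
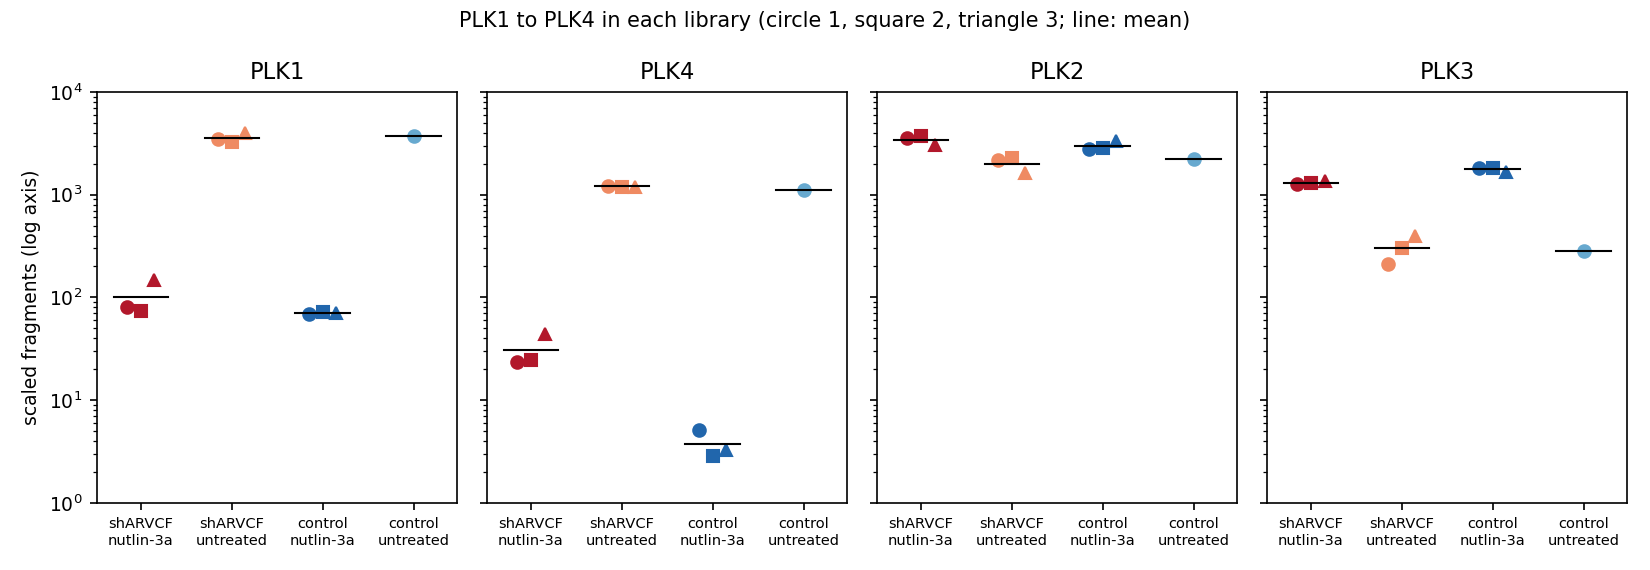
Scaled fragments (log axis) of PLK1, PLK4, PLK2 and PLK3 in each of the 10 libraries, grouped by shRNA and treatment, with circles, squares and triangles for libraries 1, 2 and 3 and a line at the group mean. PLK1 and PLK4 lie far lower in nutlin-3a than in untreated libraries, and PLK4 under nutlin-3a lies lower in the control line (2.84 to 5.09) than in the shARVCF lines (23.3 to 44.5).

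With nutlin-3a, PLK1 and PLK4 fell and PLK2 and PLK3 rose in the shARVCF lines, so all 4 genes were called at an adjusted p of 0.05 (limma with Benjamini-Hochberg adjustment). In this comparison 42.8% of all tested genes were called, 21% higher and 21.7% lower. For PLK1, the shARVCF nutlin-3a libraries 1, 2 and 3 read 81.2, 73.1 and 148.2, against 3467, 3289 and 3949 in the untreated libraries of the same lines. The highest nutlin-3a library, that of line 3, remained far below the lowest untreated one. PLK1 averaged 100.8 ± 41.2 with nutlin-3a and 3568 ± 342 untreated (SD, n = 3 each), a fitted log2 difference of -5.20 (SE 0.21, 95% interval -5.67 to -4.73, adjusted p = 5.48e-09, 36.7-fold lower). In bulk RNA, fewer cells in the stages that hold a transcript and less of it per cell cannot be told apart. The spread behind the shARVCF p-values includes differences between 3 lines, whereas the control nutlin-3a libraries come from 1 line with no label naming separate cultures, so their spread may be technical.

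PLK4, the kinase that phosphorylates STIL at the start of centriole duplication, fell about as far. Its shARVCF nutlin-3a libraries read 23.3, 24.5 and 44.5, against 1228, 1178 and 1200 in the untreated libraries. Line 3 was again the highest under nutlin-3a, and the groups did not overlap. The means were 30.8 ± 11.9 with nutlin-3a and 1202 ± 25.1 untreated (SD, n = 3 each), a log2 difference of -5.30 (SE 0.27, interval -5.89 to -4.72, adjusted p = 1.36e-08, 39.5-fold lower). Ordered from the most lowered gene, PLK4 ranked 22 and PLK1 ranked 32 of the 14955 tested genes.

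PLK3, a kinase activated by DNA damage and oxidative stress, had the larger of both rises. Its shARVCF nutlin-3a libraries read 1279, 1300 and 1362, against 211.1, 303.2 and 395.9 in the untreated libraries. The nutlin-3a libraries lay close together, while the untreated ones spread more widely, with line 1 lowest and line 3 highest. The means were 1313 ± 43.3 with nutlin-3a and 303.4 ± 92.4 untreated (SD, n = 3 each), a log2 difference of 2.16 (SE 0.18, interval 1.77 to 2.54, adjusted p = 1.36e-06, 4.46-fold higher).

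PLK2, a kinase with roles in centriole biology and at synapses, rose by less. Its shARVCF nutlin-3a libraries read 3533, 3730 and 3069, against 2154, 2253 and 1608 in the untreated libraries. Line 3 was the lowest in both conditions, and the groups did not overlap. The means were 3444 ± 339 with nutlin-3a and 2005 ± 347 untreated (SD, n = 3 each), a log2 difference of 0.79 (SE 0.13, interval 0.51 to 1.08, adjusted p = 0.000367, 1.73-fold higher). Groups that do not overlap were found for 54.9% of all tested genes in this comparison.

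In the control line, PLK1 and PLK4 also fell and PLK3 rose, while PLK2 missed the threshold. Here 57.1% of all tested genes were called, 25.1% higher and 32% lower. A single untreated library carries no information on its own variation, so the fit lends it the spread of the other groups. PLK1 read 69.2, 72.1 and 69.9 in the control nutlin-3a libraries, against 3747 in the untreated control library. The 3 treated libraries lay within a narrow band, with a mean of 70.4 ± 1.52 (SD, n = 3). The log2 difference was -5.71 (SE 0.30, interval -6.38 to -5.05, adjusted p = 5.61e-08).

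PLK4 fell to near 0 in the control line under the drug. It read 5.09, 2.84 and 3.26 in the control nutlin-3a libraries, against 1100 in the untreated control library. All 3 treated libraries were close to the detection limit, with about 10 unscaled fragments over the 3 libraries (exact Poisson 95% interval 4.80 to 18.4, counting error only). The mean was 3.73 ± 1.20 with nutlin-3a (SD, n = 3), the log2 difference -7.89 (SE 0.38, interval -8.71 to -7.07, adjusted p = 1.75e-08), and only 2 tested genes were lowered further. At so few fragments the size depends on the pseudocount, with -8.21 at a pseudocount of 0.1 and -6.34 at 10.

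PLK3 read 1819, 1812 and 1660 in the control nutlin-3a libraries, against 284.2 in the untreated control library. All 3 treated libraries were well above the untreated one and averaged 1764 ± 90.0 (SD, n = 3). The log2 difference was 2.63 (SE 0.25, interval 2.08 to 3.17, adjusted p = 3.98e-06, 6.18-fold higher).

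PLK2 read 2817, 2823 and 3301 in the control nutlin-3a libraries, against 2212 in the untreated control library. It was higher in 3 of 3 treated libraries, with a mean of 2980 ± 278 (SD, n = 3), but groups that do not overlap were found for 86% of all tested genes here. The log2 difference of 0.43 (SE 0.19, interval 0.02 to 0.83) had an adjusted p of 0.0665. It passed the threshold with line as a replicate block (0.43, adjusted p = 0.0105), with upper-quartile scaling (0.56, adjusted p = 0.0188), with TMM scaling (0.50, adjusted p = 0.0334), with relative log expression scaling (0.51, adjusted p = 0.0304), with each library's trend on transcript length and GC removed (0.67, adjusted p = 0.00874) and without untreated shARVCF library 3 (0.43, adjusted p = 0.0247). Relative to the median of all tested genes PLK2 stood at 0.52 in the values as deposited and at 0.52 with upper-quartile scaling, which moved that median by 0.14. Within the first library series, with 1 treated control library, it stood at 0.35 (adjusted p = 0.261), beside -5.74 for PLK1, -7.50 for PLK4 and 2.67 for PLK3, all 3 of these called.

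**Figure D2:**
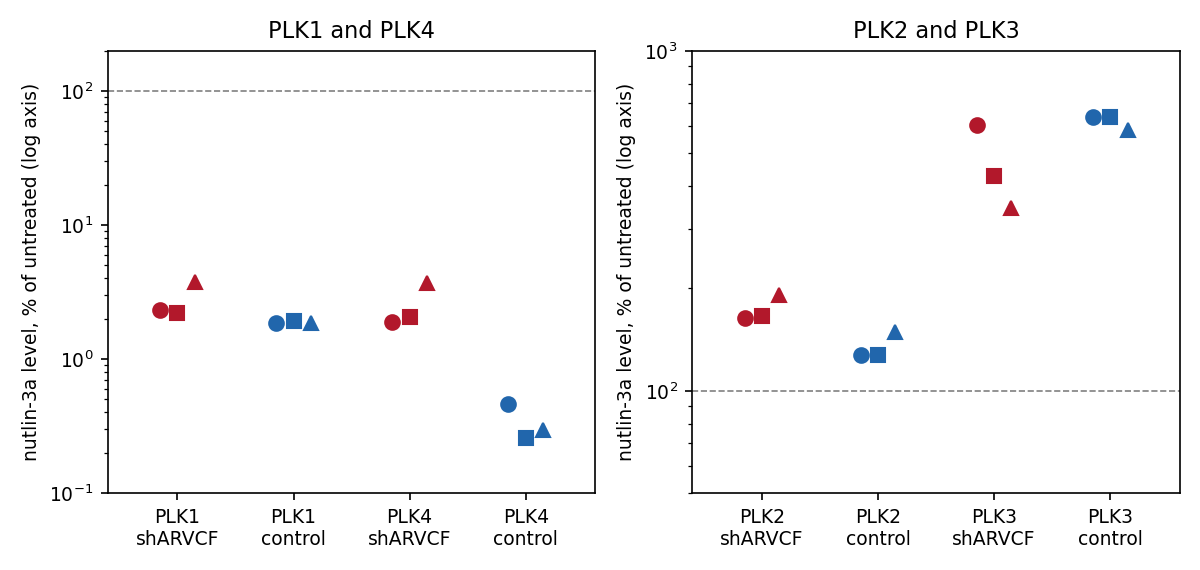
Nutlin-3a level of each library as a percentage of the untreated library of the same line (log axes), with shARVCF lines in red, control libraries in blue, and circles, squares and triangles for libraries 1, 2 and 3. The 3 control libraries share 1 untreated library. PLK4 kept 1.90% to 3.71% in the shARVCF lines and 0.259% to 0.463% in the control libraries.

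Set against its own untreated library, PLK1 kept 2.34%, 2.22% and 3.75% of its level in shARVCF lines 1, 2 and 3, against 1.85%, 1.92% and 1.87% in control nutlin-3a libraries 1, 2 and 3. PLK4 kept 1.90%, 2.08% and 3.71% in the shARVCF lines, against 0.463%, 0.259% and 0.297% in the control libraries. In shARVCF line 3 both genes kept the most. PLK1 and PLK4 thus kept similar shares within every shARVCF line, whereas in each control library PLK4 kept a smaller share than PLK1. For PLK3 the level under nutlin-3a was 6.06, 4.29 and 3.44 times the untreated level in shARVCF lines 1, 2 and 3, against 6.40, 6.37 and 5.84 times in the control libraries. The shARVCF line with the lowest untreated PLK3, line 1, had the largest ratio. For PLK2 these ratios were 1.64, 1.66 and 1.91 in the shARVCF lines, against 1.27, 1.28 and 1.49 in the control libraries.

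**Figure D3:**
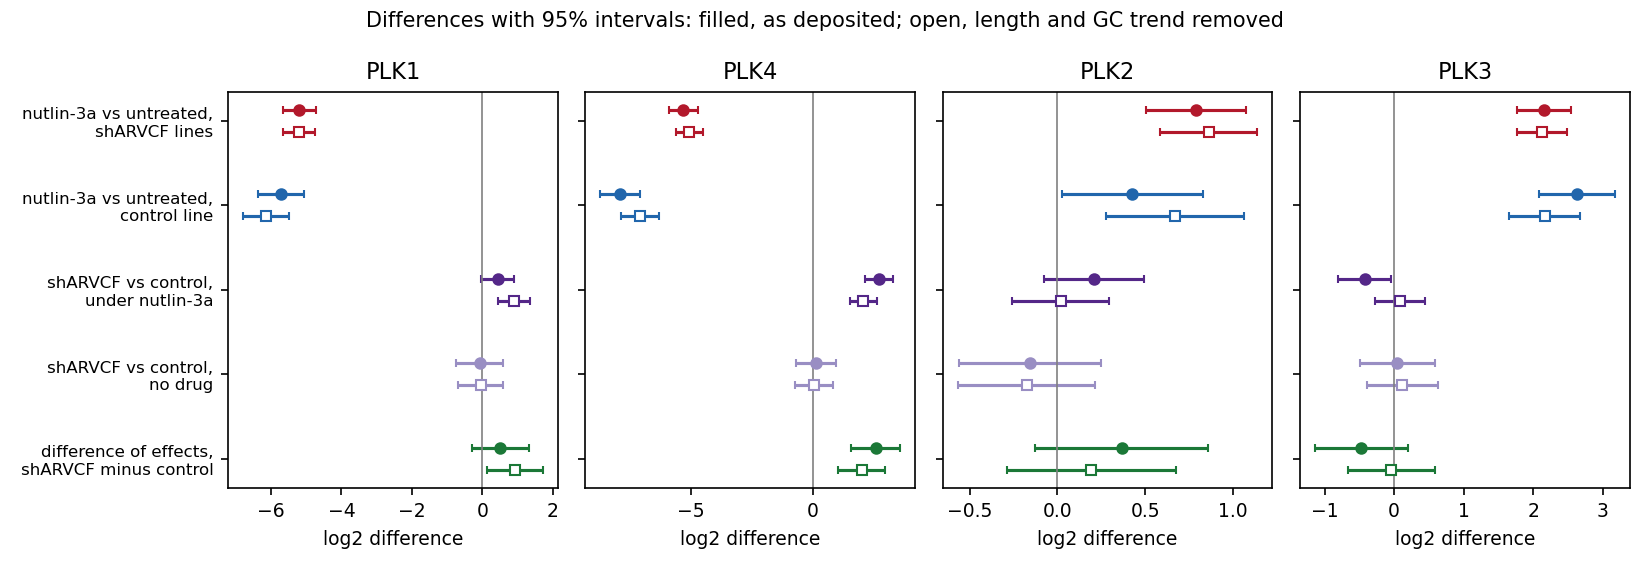
Fitted log2 differences of PLK1, PLK4, PLK2 and PLK3 in the 5 comparisons, with 95% intervals, as deposited (filled circles) and with each library's trend on spliced length and GC removed (open squares), with a separate horizontal scale for each gene. The PLK4 difference between shARVCF and control under nutlin-3a keeps its interval above 0 in both forms (2.71 and 2.07), while that of PLK3 moves from -0.42 to 0.08.

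PLK4 mRNA under nutlin-3a was more abundant in the shARVCF lines than in the control line, and PLK4 was the single member called. In this comparison 58.4% of all tested genes were called, 32.3% higher and 26.1% lower, and 64.1% had groups that did not overlap. From the values above, every shARVCF nutlin-3a library had more PLK4 than every control nutlin-3a library, and the log2 difference was 2.71 (SE 0.27, interval 2.13 to 3.30, adjusted p = 3.66e-06, 6.56-fold higher). The 3 shARVCF nutlin-3a libraries held about 99 unscaled PLK4 fragments in all (exact Poisson interval 80.5 to 120.5), beside the 10 of the control nutlin-3a libraries. Depth was unequal, with estimated unscaled totals of 1.94e+07 to 1.99e+07 in the shARVCF nutlin-3a libraries. In control nutlin-3a libraries 1, 2 and 3 these totals were 1.99e+07, 1.53e+07 and 1.51e+07. The log2 difference was 2.99 with a pseudocount of 0.1 and 1.54 with 10, and was called in both. It was 2.42 without shARVCF nutlin-3a library 3, and 2.32 within the first library series (adjusted p = 0.000997), which held 1 of the 3 control nutlin-3a libraries.

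PLK1 was higher in each shARVCF nutlin-3a library than in each control nutlin-3a library, though library 2 barely so. Its log2 difference of 0.44 (SE 0.21, interval -0.03 to 0.91) was not called (adjusted p = 0.0972). The difference rested on shARVCF line 3, and without that library it was 0.13 (adjusted p = 0.418). Without shARVCF nutlin-3a library 2 it was 0.63 (adjusted p = 0.0223), and with the length and GC trend removed 0.89 (adjusted p = 0.00531), both of them called.

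PLK3 was lower in each shARVCF nutlin-3a library than in each control nutlin-3a library, by -0.42 on the log2 scale (SE 0.18, interval -0.81 to -0.04), with an adjusted p of 0.0563. That value lies near the threshold and passed it with TMM, upper-quartile and relative log expression scaling (-0.48, -0.49 and -0.49, adjusted p = 0.0348, 0.0330 and 0.0333), with a pseudocount of 10 (adjusted p = 0.0490), and without untreated shARVCF library 1 or 3 (adjusted p = 0.00649 and 0.0122). With the length and GC trend removed it turned to 0.08 (adjusted p = 0.737). PLK2 overlapped between the shARVCF and control nutlin-3a libraries and differed by 0.21 (SE 0.13, interval -0.08 to 0.49, adjusted p = 0.192).

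The length trend stands beside these values because the groups differed in it across genes. Spearman's rho between log2 difference and spliced length over 14727 genes was 0.580 for shARVCF against control under nutlin-3a, -0.430 for the drug effect in the control line and -0.0258 for that in the shARVCF lines, over genes that are not independent replicates. PLK4 has the longest spliced transcript of the 4 and PLK1 the shortest. With the trend removed, the PLK4 difference between shARVCF and control nutlin-3a libraries was 2.07 (SE 0.26, interval 1.52 to 2.63, adjusted p = 6.09e-05).

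Some markers of cell lineage differed between the same libraries. The summed level of the 5 epithelial markers was 8863 to 14098 scaled fragments in shARVCF nutlin-3a libraries and 26481 to 27523 in control nutlin-3a libraries, and 9067 to 12853 in untreated shARVCF libraries and 11457 in the untreated control library. Most of that sum was KRT18 and KRT8, with means of 14632 and 12388 in control nutlin-3a libraries. KRT18 and KRT8 rose in the control line with nutlin-3a (3.04-fold and 1.91-fold) and stood at -1.38 and -1.29 on the log2 scale in shARVCF against control nutlin-3a libraries, all of them called. EPCAM went the other way with the drug, at -1.15 in the shARVCF lines and -1.21 in the control line, both called. CDH1 and KRT19 were not called in these comparisons. Of the 5, 0 were higher and 1 lower with the drug in the shARVCF lines, 2 higher and 1 lower in the control line, and 0 higher and 2 lower between shARVCF and control lines under the drug. Of all tested genes, 42.8%, 57.1% and 58.4% were called in these comparisons, in the same order. The 9 osteoblast lineage markers summed to 76812 to 119894 in shARVCF nutlin-3a libraries and 113564 to 130971 in control nutlin-3a libraries, and to 79405 to 106302 in untreated shARVCF libraries and 103410 in the untreated control library. ALPL, the alkaline phosphatase gene, rose by 1.79 in the shARVCF lines and 2.96 in the control line, and RUNX2, the osteoblast transcription factor, stood at -0.39 and -1.61 in the same order, all called. In the shARVCF lines the RUNX2 call was lost with the length and GC trend removed and without shARVCF nutlin-3a library 3. There 0 of the 6 tested were lower, where 45.1% and 37.8% of all tested genes were called. Of the 6 tested, 1 was higher and 2 lower in shARVCF than in control lines under nutlin-3a, where 58.4% of all tested genes were called. The 5 blood cell markers summed to 381.8 or less in every library, and the 1 tested was not called. The part of these markers in the polo-like kinase results was not tested.

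The nutlin-3a effects themselves were compared as a difference of differences, shARVCF minus control, in which 31.8% of all tested genes were called, 19.3% higher and 12.5% lower. PLK4 was called, with a log2 value of 2.59 (SE 0.46, interval 1.58 to 3.59, adjusted p = 0.00143), so its fall was deeper in the control line. With the length and GC trend removed it was 2.02 (adjusted p = 0.011), with a pseudocount of 10 it was 1.41, and within the first library series 2.19 (adjusted p = 0.013). The other members were not called, with PLK1 at 0.52 (interval -0.30 to 1.33, adjusted p = 0.322), PLK2 at 0.36 (interval -0.13 to 0.86, adjusted p = 0.247) and PLK3 at -0.47 (interval -1.14 to 0.19, adjusted p = 0.268). PLK3 was called when untreated shARVCF library 1, its lowest, was left out (-0.71, adjusted p = 0.0204). With the length and GC trend removed, the PLK3 value was -0.04.

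Without drug none of the 4 genes was called between the shARVCF lines and the lone control library, where 0.0201% of all tested genes were called, 3 by limma, and 237 had an unadjusted p under 0.05. The log2 differences were -0.07 for PLK1 (interval -0.74 to 0.59), 0.13 for PLK4 (interval -0.69 to 0.95), -0.16 for PLK2 (interval -0.56 to 0.25) and 0.05 for PLK3 (interval -0.50 to 0.59), each with an adjusted p of 1. PLK4 was higher in 3 of 3 shARVCF libraries than in the control library, a separation seen for 39.9% of all tested genes, and the other members overlapped.

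**Figure D4:**
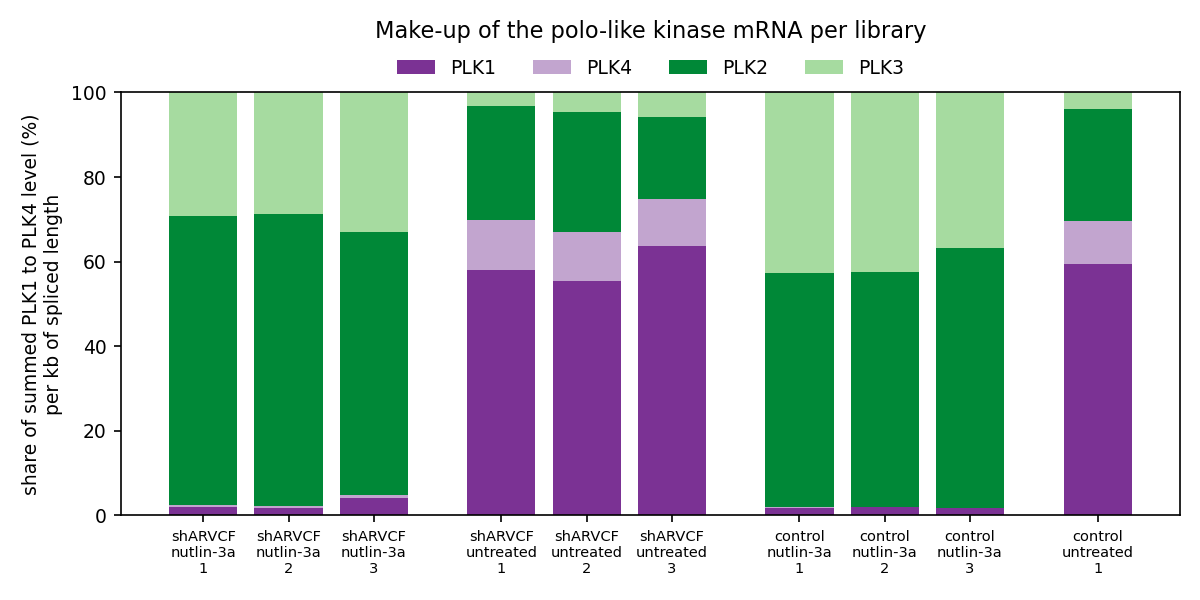
Share of the summed level of PLK1, PLK4, PLK2 and PLK3, each per kb of spliced length, in every library, grouped by shRNA and treatment. PLK2 and PLK3 make up 95.3% to 98.2% of the sum in the 6 nutlin-3a libraries and 25.2% to 33.1% in the 4 untreated ones.

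Levels of different members were compared per kb of spliced length. The sum of the 4 was 1744 ± 79.9 scaled fragments per kb in shARVCF nutlin-3a libraries and 2714 ± 64.7 in untreated shARVCF libraries (SD, n = 3 each), and 1747 ± 57.4 in control nutlin-3a libraries (SD, n = 3) and 2830 in the untreated control library. The make-up turned over within that sum. PLK2 and PLK3 together held 95.3% to 97.8% of it in shARVCF nutlin-3a libraries and 25.2% to 33.1% in untreated shARVCF libraries. They held 98.1% to 98.2% in control nutlin-3a libraries and 30.4% in the untreated control library.

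Per kb, the order of levels was PLK2, PLK3, PLK1 and PLK4 in every nutlin-3a library, and PLK1, PLK2, PLK4 and PLK3 in every untreated library, from high to low. In the shARVCF nutlin-3a libraries the ranges per kb were 1037 to 1260 for PLK2, 513.1 to 546.5 for PLK3, 32.8 to 66.5 for PLK1 and 6.07 to 11.6 for PLK4. In the untreated shARVCF libraries they were 1477 to 1773 for PLK1, 543.4 to 761.3 for PLK2, 306.6 to 319.7 for PLK4 and 84.7 to 158.9 for PLK3. No neighbours in either order overlapped. PLK1 exceeded PLK4 per kb by 5.15 to 6.01 times in shARVCF nutlin-3a libraries and 4.82 to 5.68 times in untreated shARVCF libraries. The same ratio was 23.4 to 43.7 in control nutlin-3a libraries and 5.88 in the untreated control library. PLK2 exceeded PLK3 per kb by 1.90 to 2.42 times in shARVCF nutlin-3a libraries and 3.42 to 8.59 times in untreated shARVCF libraries, and by 1.30 to 1.67 times in control nutlin-3a libraries and 6.55 times in the untreated control library. These ratios are descriptions and were not tested.

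**Figure D5:**
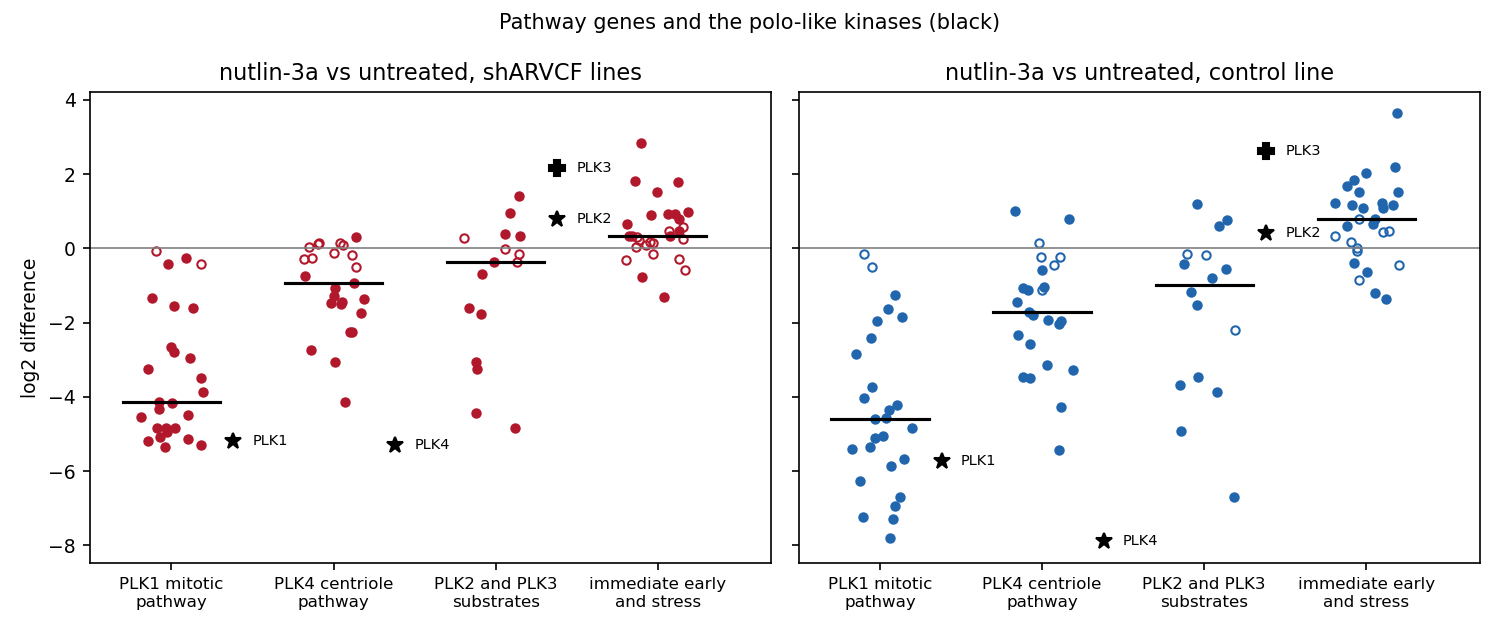
Log2 drug effects in the shARVCF lines (left) and the control line (right) for genes of 4 lists, filled where called and open where not, with the median as a line and the polo-like kinases in black. The PLK1 list has medians of -4.15 and -4.61, and PLK4 lies below every gene of its centriole list in both panels.

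Genes that work with PLK1 in mitosis moved with it. Of 28 listed, 27 were tested (all but KIZ). In the shARVCF lines 25 fell and 0 rose (median log2 -4.15, against -0.00 over all tested genes, of which 21.7% were lower and 21% higher). In the control line 25 fell and 0 rose (median -4.61, against -0.10 over all tested genes, of which 32% were lower and 25.1% higher). In the shARVCF lines CDK1, the kinase that PLK1 helps to activate, stood at -4.85 on the log2 scale (adjusted p = 1.44e-09), the spindle checkpoint genes BUB1 and BUB1B at -5.18 and -5.30, the abscission protein gene CEP55 at -5.13 and separase (ESPL1) at -5.08. The cohesin subunit STAG2 (-0.41) and the ninein-like protein NINL (-0.07) were not called. In the control line BUB1B stood at -7.79, ESPL1 at -7.24, BUB1 at -6.94, CEP55 at -6.27 and CDK1 at -5.34, while NINL and the anaphase-promoting complex activator FZR1 were not called.

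The line 3 library that stood high for PLK1 and PLK4 also stood high for this list. The median change of the tested list members from the same line was -4.36, -4.23 and -3.55 in shARVCF lines 1, 2 and 3, against -4.46, -4.78 and -4.69 in control libraries 1, 2 and 3. What sets line 3 apart was not tested. Under nutlin-3a, 18 of the 27 were higher and 2 lower in shARVCF than in control lines (median 0.97, against 0.06 over all tested genes, of which 32.3% were higher and 26.1% lower). BUB1B was higher by 2.50, ESPL1 by 2.11, BUB1 by 1.83, the centrosomal targeting factor NEDD1 by 1.45 and the cohesin release factor WAPL by 1.02, while securin (PTTG1, -0.73) and FZR1 (-0.32) were lower. AURKA, the kinase that activates PLK1, was not called (0.08). With the length and GC trend removed, 14 were higher and 1 lower, where 38.9% of all tested genes were called. The counts of the difference of effects were 6 higher and 0 lower with the trend removed (13.5% of all tested genes called), beside 13 and 0 in the values as deposited (31.8%). Without shARVCF nutlin-3a library 3, 17 were higher and 2 lower under nutlin-3a, where 55.9% of all tested genes were called.

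The centriole duplication list moved less deeply than PLK4 itself. Of 25 tested, 14 fell and 1 rose in the shARVCF lines (median -0.92, against -0.00 over all tested genes), so 60% were called where 42.8% of all tested genes were. In the control line 18 fell and 2 rose (median -1.70, against -0.10), so 80% were called where 57.1% of all tested genes were. STIL, the PLK4 partner that loads the cartwheel protein SASS6, had the deepest fall of the list, at -4.13 in the shARVCF lines (adjusted p = 7.63e-09) and -5.42 in the control line (adjusted p = 2.32e-08). In the shARVCF lines CENPJ stood at -3.05, CEP295 at -1.74, CEP135 at -1.43 and CDK5RAP2 at -1.37, all genes of centriole assembly or the pericentriolar material, and the centriolar satellite gene KIAA0753 rose by 0.30. In the control line CENPJ stood at -3.47, CEP295 at -3.27, the PLK4 scaffold CEP192 at -3.14 and CEP135 at -2.58, while FBXW5, of a ubiquitin ligase for SASS6 (1.00), and centrin 2 (CETN2, 0.79) rose.

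Under nutlin-3a, 19 of these 25 genes were higher and 3 lower in shARVCF than in control lines (median 0.73, against 0.06 over all tested genes, of which 58.4% were called), with CEP192 at 1.76, CEP295 at 1.55, CCP110 at 1.51, CEP120 at 1.28 and CEP135 at 1.26. FBXW5 (-0.92), RTTN (-0.90) and CETN2 (-0.67) were lower. This list has long transcripts, with a median spliced length of 5549 bases against 3350 over tested genes with a length. With the length and GC trend removed, 8 were higher and 8 lower (median 0.03, against -0.06 over all tested genes, of which 38.9% were called), and the difference of effects had 1 higher and 4 lower (13.5% of all tested genes called), beside 15 and 2 in the values as deposited (31.8%). PLK4 itself kept its call in both, as given above. With that trend removed, the median drug effect of the list was -0.76 in the shARVCF lines and -0.70 in the control line. Over all tested genes these medians were 0.05 and 0.10. As deposited, the list stood at -0.92 and -1.70, so its deeper median fall in the control line was not seen after the correction.

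Genes that signal surplus or lost centrosomes to p53 moved in both directions. Of 7 tested, 2 rose and 3 fell in the shARVCF lines, and 2 rose and 5 fell in the control line (medians -0.10 and -0.78), where 42.8% and 57.1% of all tested genes were called. PIDD1, the scaffold of the PIDDosome and itself a described p53 target, rose by 2.00 in the shARVCF lines and 2.59 in the control line. Its adaptor CRADD rose by 0.71 in the shARVCF lines, and the protease it recruits, CASP2, fell, at -1.06 in the shARVCF lines and -1.57 in the control line. USP28, a deubiquitinase that acts when mitosis is prolonged, fell, at -0.67 in the shARVCF lines and -1.62 in the control line. Between shARVCF and control nutlin-3a libraries 4 were higher and 1 lower, where 58.4% of all tested genes were called. With the length and GC trend removed, limma called 0 of the 7, and 1 had an unadjusted p under 0.05, where 38.9% of all tested genes were called. The median drug effect of the 7 in the control line was then 0.02, against 0.10 over all tested genes. In the values as deposited these were -0.78 and -0.10. For the shARVCF lines the corrected median was 0.04, against 0.05 over all tested genes.

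The immediate early and stress genes, the class to which PLK2 and PLK3 belong, rose more often than they fell. Of 32 listed, 29 were tested (all but IER3, KLF4 and DUSP4), and 13 rose and 2 fell in the shARVCF lines (median 0.34), where 21% of all tested genes were higher and 21.7% lower. Of the same 29, 16 rose and 4 fell in the control line (median 0.78), where 25.1% of all tested genes were higher and 32% lower. GADD45A, a p53 target of growth arrest, rose by 2.85 in the shARVCF lines (adjusted p = 5.88e-09) and 3.64 in the control line (adjusted p = 2.24e-08). In the shARVCF lines CYR61 stood at 1.82, the MAP kinase phosphatase DUSP1 at 1.51 and GADD45B at 0.93, and the stress-induced ATF3 rose 3.48-fold, while the phosphatase DUSP6 (-1.30) and the kinase SGK1 (-0.78) fell. In the control line CYR61 stood at 2.19, FOSL1 at 2.04, DUSP1 at 1.68 and JUNB at 1.18, while NR4A2 (-1.37), SGK1 (-1.21), FOS (-0.62) and KLF10 (-0.39) fell. Under nutlin-3a 5 were higher and 14 lower in shARVCF than in control lines (median -0.46), so 65.5% were called where 58.4% of all tested genes were. After removal of that trend on length and GC, 1 was higher and 7 lower, so 27.6% were called where 38.9% of all tested genes were.

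Of 16 described substrates of PLK2 and PLK3, all tested, 4 rose and 8 fell in the shARVCF lines (median -0.37), where 21% of all tested genes were higher and 21.7% lower. There were 3 that rose and 10 that fell in the control line (median -0.98), where 25.1% of all tested genes were higher and 32% lower. CDC25C, CENPJ and JUN also stand on another of these lists. In the shARVCF lines POLD1, a replicative polymerase (-1.77), TP73 (-3.24), CENPJ (-3.05) and CHEK2 (-1.59) fell, and the ubiquitin ligase gene FBXW7 (1.41), TSC1 (0.38) and JUN (0.34) rose. HIF1A, the oxygen-regulated transcription factor subunit, differed most between the lines, with 6763 ± 223 in shARVCF nutlin-3a libraries and 512.5 ± 118 in control nutlin-3a libraries (SD, n = 3 each; log2 3.74, adjusted p = 3.02e-09). Its nutlin-3a effect was -0.15 in the shARVCF lines (adjusted p = 0.393) and -3.69 in the control line (adjusted p = 2.36e-08), and the difference of effects was 3.54 (adjusted p = 3.13e-06). Of the 16, 9 were higher and 2 lower in shARVCF than in control lines under nutlin-3a (median 0.48), where 32.3% of all tested genes were higher and 26.1% lower. With the length and GC trend removed 3 were higher and 5 lower, so 50% were called where 38.9% of all tested genes were. Without drug, limma called 0 members of these 5 lists, and 0 had an unadjusted p under 0.05.

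Over the 10 libraries, the genes most like each kinase in log2 value were sought among 11628 candidates with a mean of at least 50. PLK1 was closest to CCNB2, ZWINT, CDK1, BIRC5 and CDC20 (Pearson r 0.9998 for CCNB2). PLK4 was closest to BUB1B, ANLN, ASPM, CENPE and SGOL2 (r 0.999 for BUB1B), with PLK1 at 0.967. PLK3 was closest to TREM2, ACTA2, ZSCAN4, EPN3 and BATF2 (r 0.998 for TREM2), and PLK2 to TMEM117, CPE, ABAT, F2RL2 and TMCC2 (r 0.974 for TMEM117). PLK2 and PLK3 had an r of 0.776 with each other. All of these values share the 10 libraries and the large step between treated and untreated ones, so they are descriptions only.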

How the data were processed

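Poly(A) RNA of 10 U2OS libraries was sequenced after stranded library preparation, per the labels' protocols. Per the submitters' processing notes, the authors used bcl2fastq 1.8.3, HISAT2 2.1.0 and Cuffnorm 2.2.1 with hg38. The annotation used in counting was not given in the sources used here. Values the authors deposited are a signal, estimated fragments per gene scaled across libraries, and are not whole counts, so the planned count test was replaced by its stated fallback. Genes with at least 10 scaled fragments in at least 3 libraries were tested with limma 3.58.1 (R 4.3.3) on log2(value + 1), with 4 group means, a variance trend, robust weights and 6 residual degrees of freedom. Fold changes are on this scale, which understates changes of low genes. Adjusted p-values are two-sided Benjamini-Hochberg values over all tested genes, called at 0.05, and intervals are unadjusted.

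ShRNA and treatment define 4 groups and 5 comparisons. Spliced length, GC and positions came from GENCODE release 29, which held 24016 of the symbols as written, 697 through a synonym and none for 1327, and promoter windows from RefSeq. The correction for length and GC removed each library's spline trend (4 degrees of freedom, 14727 genes). Scaling alternatives (TMM, upper quartile, relative log expression) were computed on the deposited values. An unscaled fragment estimate divides each value by the lowest step of its library.

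Members, lists and tests were chosen with earlier results of these data known. The 4 kinases are named in every comparison. Lists are illustrated by at most 5 genes of lowest adjusted p per comparison and by those called against the direction of most, and STAG2, NINL, FZR1, AURKA, the lineage markers with values and some values of the same genes in other comparisons were added after their values were seen. Replicate numbers pair the shARVCF libraries, since the same number is the same line, and residuals of a line correlated across treatments (r 0.275, 0.288 and 0.327). Alternatives were pseudocounts of 0.1 and 10, other filters and scalings, library series, each library left out, a replicate block, and the length and GC correction. The test was checked on simulated data. A few members of the lists are not reported here by name.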

Additional observations from a re-analysis of the deposited data

Results flagged for a closer look

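PLK4 differed between the shARVCF lines and the control line in its response to nutlin-3a. The difference of the log2 effects was 2.59 (SE 0.46, adjusted p = 0.00143, limma), and PLK4 kept a larger share of its untreated level in 3 of 3 shARVCF lines than in any of the 3 control libraries. The control nutlin-3a libraries held about 10 unscaled PLK4 fragments in all and rest on 1 line and 1 untreated library.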

How the results depend on the processing

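Across the alternatives, 391 of the recomputed values of the 4 kinases kept their direction and their side of the threshold, 15 passed a threshold they had missed, 2 changed sign and 0 lost a call. PLK1, PLK3 and PLK4 remained called with nutlin-3a in both kinds of line, PLK2 in the shARVCF lines, and PLK4 in the nutlin-3a comparison of shARVCF with control and in the difference of effects, under every alternative that could be fitted. PLK2 in the control line became called with TMM (0.50), upper-quartile (0.56) and relative log expression scaling (0.51), with the length and GC trend removed (0.67) and with the replicate block (0.43), and ranged from 0.35 to 0.46 with each library left out. PLK3, shARVCF against control under nutlin-3a, became called with TMM (-0.48), upper-quartile and relative log expression scaling (both -0.49) and a pseudocount of 10 (-0.42), was 0.081 with the length and GC trend removed, and ranged from -0.47 to -0.40 with each library left out. PLK1 in that comparison was 0.89 with the trend removed and ranged from 0.13 to 0.63 with each library left out. The PLK3 difference of effects was -0.04 with the trend removed and ranged from -0.71 to -0.26 with each library left out. Without drug, PLK3 turned to -0.17 without untreated shARVCF library 3 and ranged to 0.28. The cause of these changes was not tested. The replicate block changed no other call of the 4 kinases.

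Of all tested genes, 3 were called between shARVCF and control without drug, 8 with a pseudocount of 0.1, 0 with 10, 0 with the length and GC trend removed, 1 in the first library series and 1 to 5 with each library left out. With the trend removed, the calls between shARVCF and control under nutlin-3a went down to 5727, against 8731, and those of the difference of effects to 1990, against 4756. The share of higher calls was then 40.7%, against 55.3%, and 39.1%, against 60.8%, and in the control line 57.7%, against 44.0%. That correction moved the median of all genes by 0.20 in the control line, -0.12 under nutlin-3a and -0.12 in the difference of effects. Without the untreated control library only nutlin-3a in the shARVCF lines and shARVCF against control under nutlin-3a could be fitted. Depth limits PLK4 most, at a few fragments per control nutlin-3a library.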
